A study of Penicillium oxalicum with 6 samples.

Results

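The genes described here are those that follow *PoxAmyR* in the numbering of the *Penicillium oxalicum* genome, from *POX_f08098* to *POX_f08140*. They were taken by ID alone, *PoxAmyR* (*POX_f08097*) itself being left out, and 42 of the 43 IDs in this range were listed among the 11159 rows of the data, *POX_f08112* not being analysed here. In the reference gene table of strain HP7-1 (assembly ASM172317v3) 41 of them matched, on chromosome VI, and *POX_f08109* had no match. The 41 follow each other there with no other gene between them that is both in that table and in the data. Genes of the table without a row in the data were not considered. This stretch was picked because many of its genes had higher FPKM in GXUR001 than in TE4-10 in these same libraries. Their differences between the strains, and the limma calls counted among them, are therefore given below as a description of the values and not as a test of the run. FPKM (fragments scaled to the length of the gene and to all mapped fragments of the library) is the value the authors deposited.

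GXUR001 is an engineered strain that lacks the repressor gene *PoxCxrC* and overexpresses the activator gene *PoxAmyR* from a cassette placed at the *PoxCxrC* locus. TE4-10, labelled as the wild type of the comparison, is its direct parent and keeps *PoxCxrC*. By the study's account TE4-10 is itself a multiple mutant, selected after chemical and gamma-ray mutagenesis of A2-13, a strain in which the glucoamylase gene *PoxGA15A* is overexpressed from a cellulose-induced promoter in a Δ*PoxKu70* background, so both strains share these changes. Both strains were cultured for 24 h in glucose medium and, after transfer, for 24 h in enzyme-producing medium. The labels name raw starch as the carbon source of that medium, and the methods name wheat bran plus Avicel (microcrystalline cellulose). Libraries of GXUR001 replicates 1, 2 and 3 and of TE4-10 replicates 1 and 3 were used (n = 3 and n = 2), and TE4-10 replicate 2 was not analysed here. Both regulators were changed in the same strain, so the loss of *PoxCxrC* and the gain of *PoxAmyR* cannot be told apart.

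AmyR proteins of *Penicillium* and *Aspergillus* are zinc-cluster transcription factors that switch on amylase, glucoamylase and α-glucosidase genes when starch or its breakdown products are present. In several *Aspergillus* species the *amyR* gene lies beside an α-amylase and an α-glucosidase gene. In filamentous fungi the genes of one nutrient or secondary-metabolite pathway often stand next to each other on a chromosome and are expressed together. The sources used here pair none of the 42 genes with a product or a name, so each is given by its ID, with its level and its neighbours, and no function is assigned.

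The summed FPKM was between 1218691 and 1295493 per library. Every library was scaled by its median ratio to a geometric-mean library, with factors of 0.879 to 0.996 in GXUR001 and 1.11 to 1.15 in TE4-10, and values after this step are called rescaled. The read numbers behind the FPKM are not given in the files, but the most frequent ratio between low FPKM values gave depths 1.04 to 1.10 times as large in GXUR001 as in TE4-10. Pearson's *r* of log2(FPKM + 1) across all rows was 0.978 to 0.984 between GXUR001 libraries, 0.970 between the TE4-10 libraries and 0.951 to 0.968 between strains, where genes are not independent replicates. The actin gene *POX_c04656* had 1751, 1687 and 1650 FPKM in GXUR001 and 2038 and 2305 FPKM in TE4-10, and no marker of conidia was checked against the label mycelium.

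*PoxAmyR*, the gene before the run, was set against the labels. It had 90.6, 84.1 and 74.3 FPKM in GXUR001 replicates 1, 2 and 3, against 62.8 and 66.7 FPKM in TE4-10 replicates 1 and 3. The lowest GXUR001 value was above the highest TE4-10 value. On rescaled log2(FPKM + 1), GXUR001 minus TE4-10 was 0.62 (SE, standard error, 0.16).

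Along the run, the genes with higher FPKM in GXUR001 formed a dense block that was well removed from *PoxAmyR*. A gene is called raised below where its log2 fold change on rescaled log2(FPKM + 1) was at least 1 and every GXUR001 library lay above every TE4-10 library. The first raised gene was *POX_f08110*, the 13th ID after *PoxAmyR*, and *POX_f08114* followed. The dense block began at *POX_f08120* and ended at *POX_f08134*, and *POX_f08136* was the last raised gene. In all, 14 genes were raised, 11 of them in the dense block. Of the 42 genes, 35 had a mean FPKM of at least 1 and were fitted by limma. In that fit 16 of the 35 were called higher in GXUR001 at an adjusted p under 0.05, against 9.74% of all genes tested, and 2 were called lower, against 8.08%. Over all genes tested, 4.47% were raised, and the median log2 fold change was 0.00, against 0.60 for the 35. The genes were chosen on this contrast, so nothing is read from these shares. Without GXUR001 replicate 2, limma called 3 of the 35 higher, although all 14 stayed raised.

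**Figure D1:**
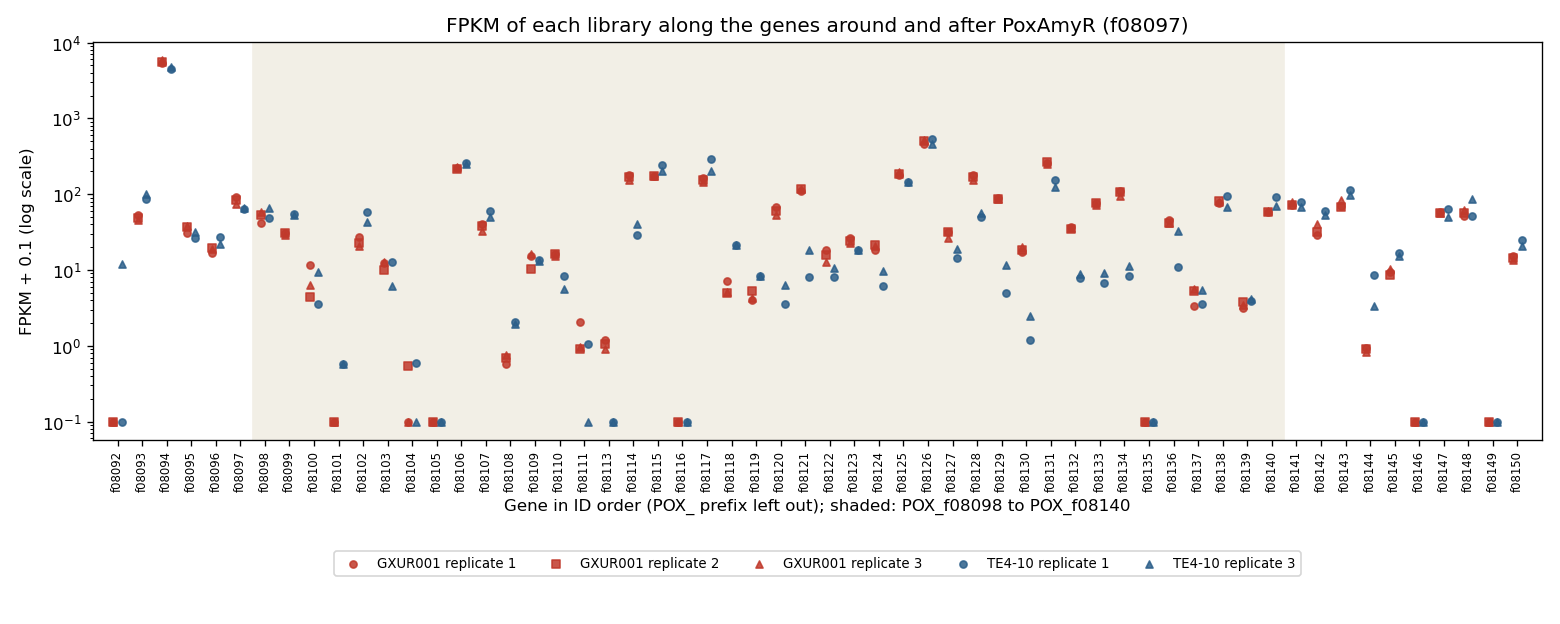
FPKM + 0.1 on a log axis for each gene in ID order from *POX_f08092* to *POX_f08150*, with 1 point per library (GXUR001 in red, left; TE4-10 in blue, right) and the 42 genes of the run shaded. From *POX_f08120* to *POX_f08134* the red points lie above the blue ones in every gene but *POX_f08126*, where they overlap as deposited, and on both sides of this block the colours are mixed.

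The dense block opened with a pair of genes of very different level in the 2 strains. *POX_f08120* had 68.2, 59.6 and 52.8 FPKM in GXUR001 replicates 1, 2 and 3, against 3.51 and 6.23 FPKM in TE4-10 replicates 1 and 3. Every GXUR001 library was at least 9.40 times as high as the higher TE4-10 library after rescaling. Its log2 fold change was 3.65 (SE 0.26), a ratio of 14.98 between the means of rescaled FPKM, and it was at rank 8 by log2 fold change among all genes whose GXUR001 libraries lay above both TE4-10 libraries. *POX_f08121*, the next gene, reached 111, 117 and 117 FPKM in GXUR001, against 7.89 and 18.1 FPKM in TE4-10. The GXUR001 libraries were close to each other while the TE4-10 libraries were 2.38-fold apart after rescaling. The difference was 3.42 log2 units (SE 0.33). Leaving out TE4-10 replicate 1 gave 2.84, and leaving out replicate 3 gave 3.98.

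A second group of high ratios lay at *POX_f08129* and *POX_f08130*. *POX_f08129* had 87.9, 86.5 and 86.5 FPKM in GXUR001, against 4.84 and 11.5 FPKM in TE4-10. The coefficient of variation among the GXUR001 libraries was 0.920% in FPKM as deposited and 7.03% after the rescaling between libraries. GXUR001 exceeded TE4-10 by 3.62 log2 units (SE 0.33). *POX_f08130* was the raised gene of lowest level in the parent, with 17.2, 18.5 and 20.2 FPKM in GXUR001, against 1.11 and 2.38 FPKM in TE4-10. The strains were far apart here as well, but at a level in GXUR001 that 42.0% of tested genes did not reach. The log2 fold change of *POX_f08130* was 3.07 (SE 0.22), and 3.69 with a pseudocount of 0.1 in place of 1.

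The block closed with 3 genes of increasing fold change. *POX_f08132* had 37.2, 34.7 and 35.6 FPKM in GXUR001, against 7.81 and 8.80 FPKM in TE4-10, a log2 fold change of 2.24 (SE 0.12). *POX_f08133* had 77.2, 77.6 and 71.8 FPKM in GXUR001, against 6.57 and 9.09 FPKM in TE4-10, a log2 fold change of 3.38 (SE 0.17). In both genes the replicates of each strain lay close together compared with the distance between the strains. *POX_f08134*, the last gene of the block, had 109, 107 and 93.3 FPKM in GXUR001, against 8.33 and 11.2 FPKM in TE4-10. Its log2 fold change was 3.54 (SE 0.18), and the means of rescaled FPKM differed by a ratio of 12.8. The next gene in the table, *POX_f08135*, was listed at 0 FPKM in all 5 libraries, and *POX_f08136* after it was raised.

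The other raised genes of the block had smaller ratios and, in part, much higher levels. *POX_f08128* had 177, 167 and 154 FPKM in GXUR001, against 49.5 and 56.1 FPKM in TE4-10, a log2 fold change of 1.91 (SE 0.14). *POX_f08131* had the highest level of the raised genes, with 257, 267 and 253 FPKM in GXUR001, against 155 and 126 FPKM in TE4-10, a log2 fold change of 1.16 (SE 0.12). It stood between genes of much lower level in TE4-10, *POX_f08130* and *POX_f08132*. *POX_f08124* had 18.1, 21.4 and 20.7 FPKM in GXUR001, against 6.09 and 9.64 FPKM in TE4-10, a log2 fold change of 1.52 (SE 0.20). *POX_f08127* had 32.1, 31.5 and 26.7 FPKM in GXUR001, against 14.1 and 18.7 FPKM in TE4-10, a log2 fold change of 1.11 (SE 0.19). *POX_f08127* and *POX_f08131* were the raised genes nearest to the limit of 1, and with FPKM as deposited, without rescaling, their log2 fold changes were 0.85 and 0.88, so that 12 genes were raised.

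**Figure D2:**
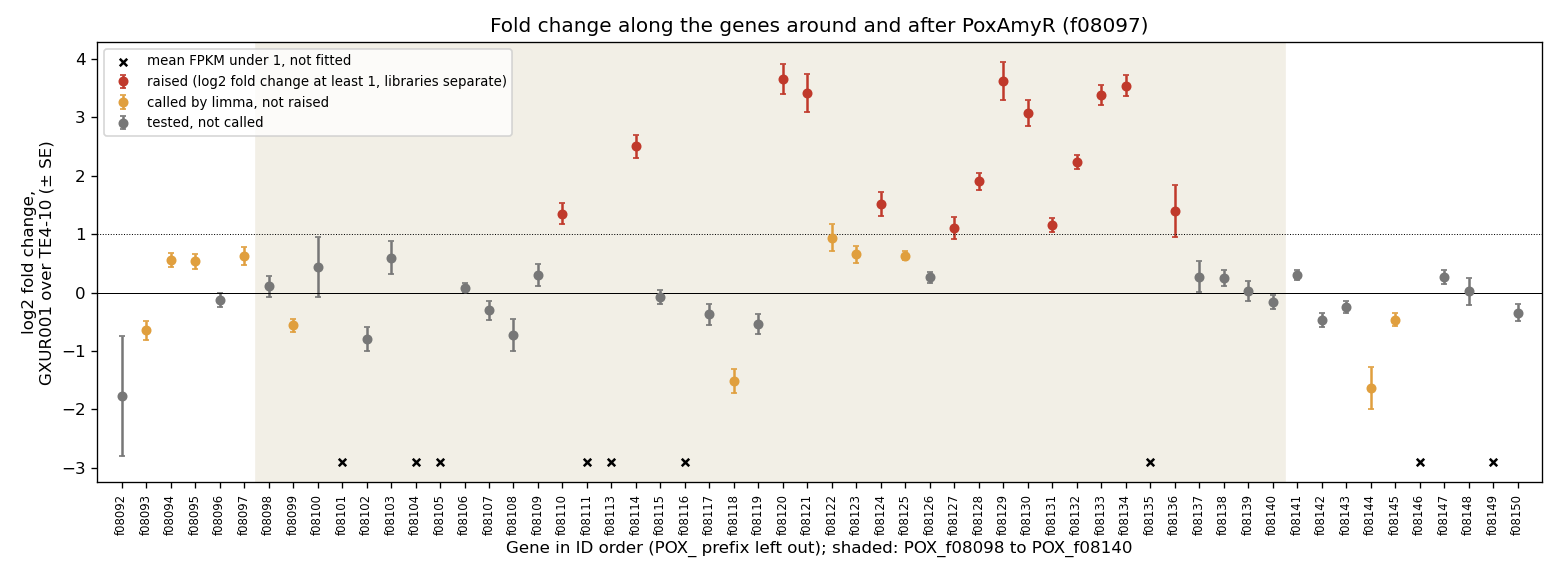
Log2 fold change of GXUR001 over TE4-10 on rescaled log2(FPKM + 1), with standard errors, for each gene in ID order from *POX_f08092* to *POX_f08150*; red points are raised, orange points were called by limma but not raised, grey points were not called, and crosses mark genes with a mean FPKM under 1. The red points stand at *POX_f08110*, *POX_f08114*, between *POX_f08120* and *POX_f08134*, and at *POX_f08136*, and no point on either side of them is red.

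Between *POX_f08120* and *POX_f08134*, 4 genes were not raised. They stood in 2 pairs. *POX_f08122* had 18.4, 15.7 and 12.7 FPKM in GXUR001, against 8.11 and 10.4 FPKM in TE4-10. Its strains did not overlap, and its log2 fold change of 0.94 (SE 0.23) was just under the limit, while with a pseudocount of 0.1, without GXUR001 replicate 3 or without TE4-10 replicate 3 it was counted as raised. *POX_f08123* had 26.7, 24.3 and 22.4 FPKM in GXUR001, against 18.3 and 18.4 FPKM in TE4-10, a log2 fold change of 0.65 (SE 0.14). *POX_f08125* had 181, 184 and 197 FPKM in GXUR001, against 146 and 145 FPKM in TE4-10, a log2 fold change of 0.63 (SE 0.08). These 3 genes were called higher by limma but stayed under the limit.

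*POX_f08126* was the most abundant gene of the run and differed least in the block. It had 464, 496 and 526 FPKM in GXUR001, against 538 and 464 FPKM in TE4-10. These values overlapped as deposited, and only after rescaling did the GXUR001 libraries lie above both TE4-10 libraries. Its log2 difference of 0.26 (SE 0.09) was not called by limma, and was -0.01 with FPKM as deposited. After rescaling, all 15 genes from *POX_f08120* to *POX_f08134* had every GXUR001 library above every TE4-10 library, against 26.7% of all genes tested. As deposited 14 of the 15 did, against 12.6%. The limits of the block were set on these same values, so nothing is read from these shares.

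Apart from the block lay 3 raised genes. *POX_f08110* had 16.1, 16.3 and 15.01 FPKM in GXUR001, against 8.35 and 5.55 FPKM in TE4-10, a log2 fold change of 1.35 (SE 0.18). *POX_f08114* was far more abundant, with 177, 167 and 153 FPKM in GXUR001, against 28.9 and 40.5 FPKM in TE4-10. Its log2 fold change was 2.51 (SE 0.20), a ratio of 5.79 between the means of rescaled FPKM, which the next gene, *POX_f08115*, did not share. *POX_f08136*, 1 gene past the end of the block, had 45.6, 41.2 and 41.3 FPKM in GXUR001, against 10.7 and 32.8 FPKM in TE4-10. Its TE4-10 libraries were 3.18-fold apart after rescaling, the largest distance among the raised genes, and it was the only raised gene that limma did not call. The log2 difference of 1.40 (SE 0.45) became 0.61 when TE4-10 replicate 1 was left out, and 2.18 when TE4-10 replicate 3 was.

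**Figure D3:**
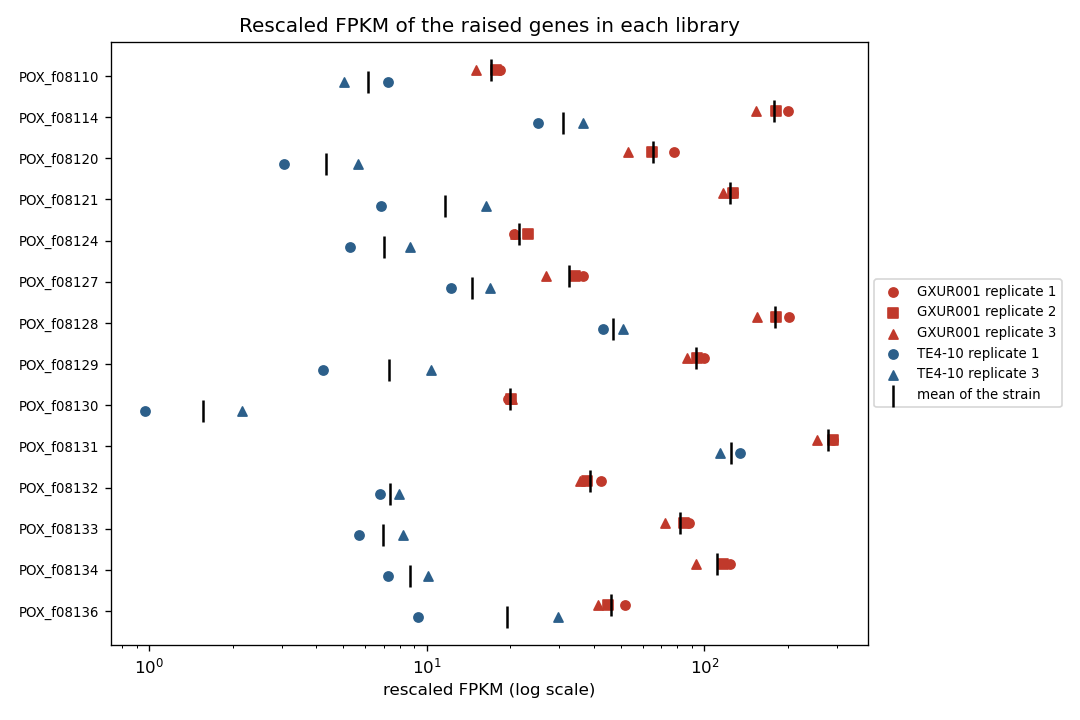
Rescaled FPKM on a log axis of the 14 raised genes, 1 row per gene in ID order, with a point per library (GXUR001 in red, upper; TE4-10 in blue, lower) and a bar at the mean of each strain. No row has overlapping strains, and the TE4-10 points of *POX_f08136* are spread the most. The gap from the lowest GXUR001 point to the highest TE4-10 point is widest in *POX_f08120*, *POX_f08130* and *POX_f08134*.

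Between *POX_f08114* and the block, none of the fitted genes was higher in GXUR001. *POX_f08115* had 175, 172 and 171 FPKM in GXUR001, against 242 and 201 FPKM in TE4-10, a log2 fold change of -0.08 (SE 0.11) after rescaling. *POX_f08117* had 162, 154 and 144 FPKM in GXUR001, against 287 and 202 FPKM in TE4-10, a log2 fold change of -0.37 (SE 0.17). Both belonged to the abundant genes of the run, and neither was called by limma. *POX_f08118* had 6.97, 4.88 and 4.97 FPKM in GXUR001, against 21.3 and 21.1 FPKM in TE4-10, and was called lower. At -1.51 log2 units (SE 0.20) it was the lowest of the run. *POX_f08119*, directly before the block, had 3.89, 5.15 and 4.14 FPKM in GXUR001, against 8.23 and 8.12 FPKM in TE4-10, a log2 fold change of -0.54 (SE 0.17), and it was not called. The edge of the block was thus sharp, with -0.54 at *POX_f08119* and 3.65 at its neighbour *POX_f08120*.

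The 12 genes next to *PoxAmyR*, *POX_f08098* to *POX_f08109*, held no raised gene and none called higher. Of these, 9 were fitted, with log2 fold changes between -0.80 and 0.60 and a median of 0.08. *POX_f08098*, the direct neighbour, had 42.0, 53.1 and 58.5 FPKM in GXUR001, against 48.5 and 66.6 FPKM in TE4-10, and the strains overlapped. *POX_f08099* had 30.9, 30.9 and 28.9 FPKM in GXUR001, against 55.3 and 53.3 FPKM in TE4-10. It was called lower, at -0.56 log2 units (SE 0.11). *POX_f08106* was the most abundant of them, at 223 ± 7.14 FPKM in GXUR001 (SD, n = 3) and 256 ± 6.07 FPKM in TE4-10 (SD, n = 2), and its log2 fold change was 0.08 (SE 0.09) after rescaling and -0.19 as deposited. Under the omission of TE4-10 replicates 1 and 3 in turn, *POX_f08103* and *POX_f08100* reached log2 fold changes of 1.03 and 1.05 and counted as raised, so the first raised gene depended on the parental library there.

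Behind *POX_f08136*, no gene of the run was raised. *POX_f08137* had 3.29, 5.24 and 5.49 FPKM in GXUR001, against 3.50 and 5.41 FPKM in TE4-10. *POX_f08138* had 76.1, 81.9 and 79.2 FPKM in GXUR001, against 93.8 and 68.6 FPKM in TE4-10. In both the strains overlapped. *POX_f08140*, the last gene of the run, had 58.4, 58.0 and 60.3 FPKM in GXUR001, against 91.5 and 69.6 FPKM in TE4-10, and *POX_f08141*, the first gene outside it, had 71.0, 72.1 and 79.3 FPKM in GXUR001, against 77.6 and 68.3 FPKM in TE4-10. Their log2 fold changes were -0.16 (SE 0.13) and 0.30 (SE 0.08). Of *POX_f08142* to *POX_f08150*, none was raised. In this stretch *POX_f08144* and *POX_f08145* were called lower, at -1.63 log2 units (SE 0.37) and -0.47 log2 units (SE 0.11). On the other side of *PoxAmyR*, *POX_f08096* was at -0.12 log2 units (SE 0.12) and was not called. *POX_f08094* had 5623 ± 176 FPKM in GXUR001 (SD, n = 3) and 4609 ± 120 FPKM in TE4-10 (SD, n = 2). It was at 0.56 log2 units (SE 0.12), and *POX_f08095* was at 0.54 (SE 0.13). Limma called both of these higher, and it called *POX_f08093* lower, at -0.65 log2 units (SE 0.16).

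The remaining 7 of the 42 genes had a mean FPKM under 1 and were not fitted. *POX_f08105*, *POX_f08116* and *POX_f08135* were listed at 0 in all 5 libraries. *POX_f08113*, directly before *POX_f08114* among the listed rows, had 1.10, 0.96 and 0.81 FPKM in GXUR001 and was listed at 0 in both TE4-10 libraries. It was counted as raised when no filter on low FPKM was used. *POX_f08101* had the opposite pattern, listed at 0 in all GXUR001 libraries and at 0.47 and 0.48 FPKM in TE4-10. *POX_f08104* and *POX_f08111* had values above 0 in both strains and reached at most 0.50 and 1.96 FPKM. All raised genes had a mean of at least 1.75 FPKM in TE4-10, so none entered the fit through GXUR001 alone.

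The raised genes were defined as higher in GXUR001, so their higher rank by level there follows from that rule and is a description only. Of the 14, 11 were above the median of tested genes in GXUR001, against 3 in TE4-10. Their median was 67.9 FPKM in GXUR001, against 9.02 FPKM in TE4-10. The 21 other genes fitted in the run had medians of 24.5 FPKM in GXUR001 and 50.7 FPKM in TE4-10, as deposited. These medians fall on different genes, and the median log2 fold change of the 21 was 0.08 after rescaling. All genes tested had medians of 25.6 and 31.5 FPKM in GXUR001 and TE4-10. The mean FPKM of the raised genes ran from 15.8 to 259 in GXUR001 and from 1.75 to 141 in TE4-10. In 10 of the 14 the TE4-10 mean was under 20 FPKM. The block was thus mixed in level, since *POX_f08125*, *POX_f08126*, *POX_f08128* and *POX_f08131* were already above 50 FPKM in TE4-10 and stood between genes of low level.

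The replicates of each strain differed along the raised genes in a shared direction. In TE4-10, 12 of the 14 raised genes were higher in replicate 3 than in replicate 1 after rescaling, *POX_f08110* and *POX_f08131* being the exceptions. The median log2 difference between these libraries was 0.49, against 0.01 for the 21 other fitted genes of the run. Raised genes elsewhere in the genome also tended this way, with 284 of 417 (68.1%) higher in TE4-10 replicate 3 and a median log2 difference of 0.32. The share was 57.1% for the 21 other fitted genes of the run and 49.9% over all genes tested. In *POX_f08121*, *POX_f08129*, *POX_f08130* and *POX_f08136* the parental libraries were over 2.23-fold apart, and in each the values of both stayed below every GXUR001 library. TE4-10 replicate 3 was also the parental library nearer to GXUR001 over all rows (Pearson's *r* of 0.968 with each GXUR001 library, against 0.951 to 0.953 for replicate 1), and the part of this difference in the values of the raised genes was not tested.

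**Figure D4:**
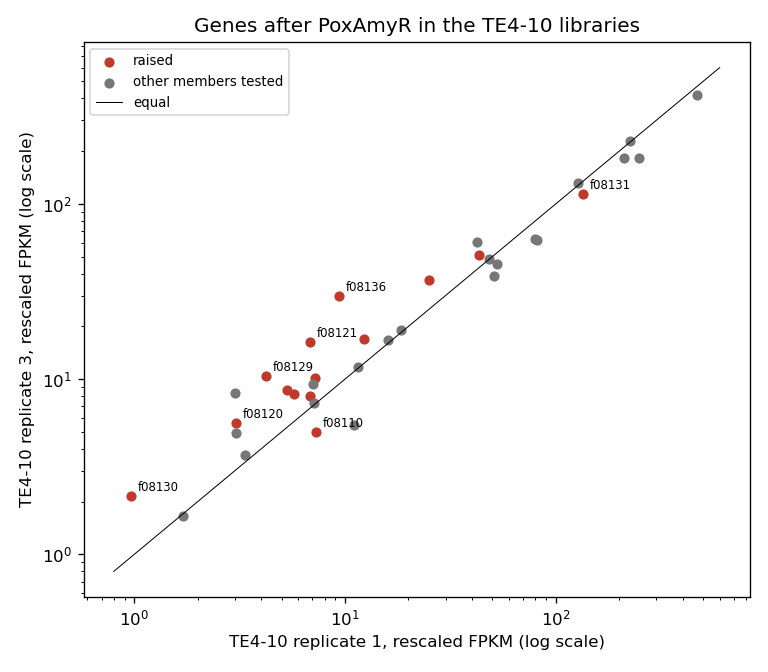
Rescaled FPKM of the 35 fitted genes of the run in TE4-10 replicate 3 (vertical, log axis) against TE4-10 replicate 1 (horizontal, log axis), raised genes in red and the others in grey, with the line of equal values. Of the red points 12 of 14 lie above the line, and *POX_f08136* lies farthest from it, whereas the grey points lie on both sides.

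Within GXUR001, replicate 3 had the lowest rescaled value in 12 of the 14 raised genes, against 41.7% of the raised genes elsewhere and 39.9% of all genes tested. With FPKM as deposited it was the lowest in 9 of the 14, against 25.7% of the raised genes elsewhere. The coefficient of variation among the GXUR001 libraries was 0.920% to 12.8% over the raised genes in FPKM as deposited and 1.67% to 18.9% after the rescaling between libraries. Whether the genes of the block vary together between cultures was not tested.

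For comparison with the rest of the genome, the genes were ordered by the reference gene table, which matched 9718 of 9822 annotated rows. The 15 genes from *POX_f08120* to *POX_f08134* were the longest unbroken run of genes whose GXUR001 libraries all lay above both TE4-10 libraries. In this count a gene that was not fitted also ended a run, as *POX_f08135* did here. The next longest held 9 genes (*POX_g08781* to *POX_g08789*, 2 of them raised) and 8 genes (*POX_a00184* to *POX_a00191*, 1 raised). With FPKM as deposited, *POX_f08126* divided the block into runs of 6 and 8 genes, and that of 8 genes was still the longest of the genome. Of raised genes only, *POX_f08127* to *POX_f08134* made an unbroken run of 8, followed by *POX_d05588* to *POX_d05592* with 5 and *POX_g08893* to *POX_g08896* with 4. In windows of 15 successive genes, 11 raised genes were the highest number found, at *POX_f08120* to *POX_f08134*, and 6, at *POX_c04719* to *POX_c04733*, the highest among windows that did not overlap it, while 64.3% of the 9593 windows held none. By size, 21 genes of all tested had a log2 fold change of at least 3 with separate strains, and 6 of them were in the block. These ranks describe the choice of the stretch, which was made on the same values.

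**Figure D5:**
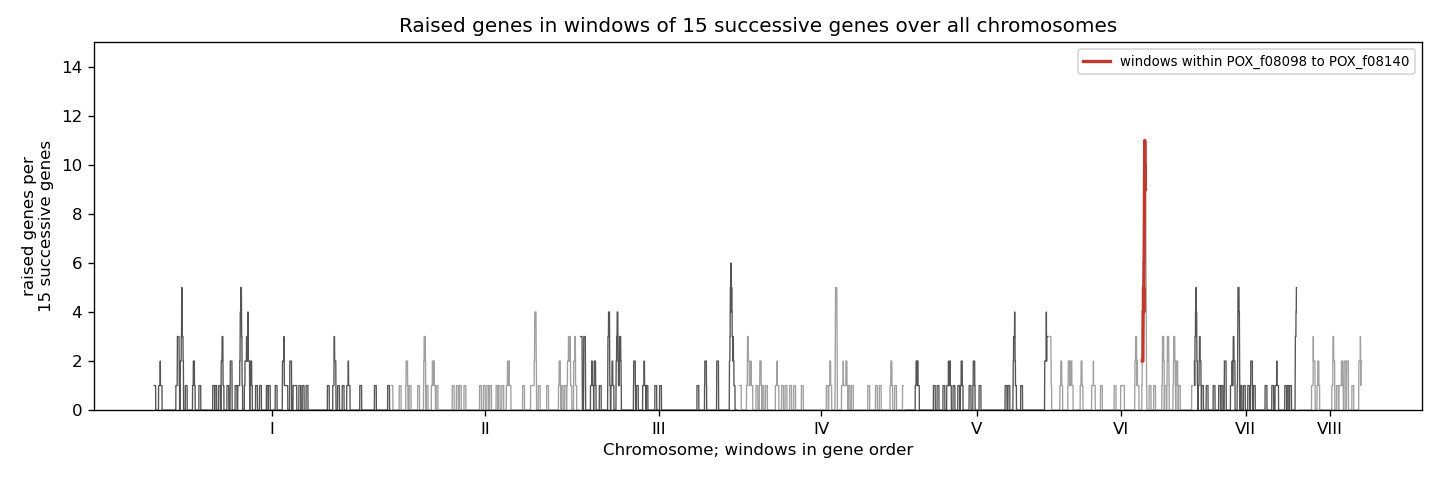
Number of raised genes in each window of 15 successive genes, with the windows in gene order along chromosomes I to VIII, and the windows within *POX_f08098* to *POX_f08140* in red. The red peak reaches 11 on chromosome VI, and windows that share no gene with *POX_f08120* to *POX_f08134* reach at most 6.

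The starch genes that the text of the paper names by ID were set beside the run as a reference list of starch metabolism. The genes *PoxGA15A* and *PoxAmy13A* are not in it and were not analysed here, since the sources used here do not pair these names with IDs. Of the 6 genes listed, 1 was raised, the lytic polysaccharide monooxygenase gene *PoxAA13* (*POX_g09282*), with 95.9, 101 and 113 FPKM in GXUR001, against 27.3 and 36.3 FPKM in TE4-10. Limma called 1 of the 6 higher and 2 lower, and their median log2 fold change was -0.34. The paper, with TE4-10 replicate 2 included and at its own threshold, reports *PoxAA13* and *POX_b02418* as higher. It reports *POX_b03245*, *POX_f08248*, *POX_e06687* and *POX_d05520* as lower. Here *POX_b02418* had a log2 fold change of 0.35 (SE 0.09) and was not called, although every GXUR001 library lay above both TE4-10 libraries. Over all genes tested, 9.74% were called higher, 8.08% were called lower and 4.47% were raised. The text of the paper does not name *POX_b03346*, and the gene table used here gives it no product, so a role in starch metabolism is not shown. With it added, 3 of 7 were called lower and the median was -0.37. Raised genes of the block such as *POX_f08129* and *POX_f08134* reached FPKM in GXUR001 near that of *PoxAA13* from a lower level in TE4-10.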

How the data were processed

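Expression was measured by RNA-seq in 3 libraries of GXUR001 and 2 of TE4-10. For each library the authors deposited a file of FPKM. The submitters' processing notes name bcl2fastq and HISAT2, and by the paper clean reads were matched to the genome of strain HP7-1. The counting tool, strand handling and genome build are not given in the sources used here, so no coordinates or gene lengths are printed, and reads of overlapping or near-identical genes may have been shared out. Without gene lengths or counts no count test was used.

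Libraries were rescaled by median ratio. The 9636 genes that reached 1 FPKM on average were compared on log2(FPKM + 1) by limma 3.58.1 in R 4.3.3 (trend, residual degrees of freedom 3), with Benjamini-Hochberg adjustment over all of them, a gene being called at an adjusted p under 0.05. The procedure was checked on simulated data with the same added noise in all genes. In the data, the median SD between the TE4-10 libraries was 0.349 log2 units for the raised genes of the run. It was 0.157 for all genes tested, and such a difference in spread was not simulated. Where fold changes of low genes are given, the log2(FPKM + 1) scale understates them. The paper gives biological replicates. The members, lists and rules were chosen with earlier results of these data known. Genes were named by a rule: all raised genes, those between the first and last raised gene, and those at the edges. Lists by product name or conidial marker were not used, since the gene table pairs IDs with no product, and sequences were not used. Plots used matplotlib 3.10.9 and Python 3.11.15.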

Additional observations from a re-analysis of the deposited data

How the results depend on the processing

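The alternatives were no rescaling (FPKM as deposited) or scaling by the upper quartile, no filter on low FPKM or a minimum mean of 10, a pseudocount of 0.1, limma without a trend, a replicate block, and the omission of each library. The number of raised genes in the run (14) stayed between 12 and 16 under all of them, where FPKM as deposited lost *POX_f08127* and *POX_f08131* and the omission of TE4-10 replicate 1 lost *POX_f08127* and *POX_f08136*, while the other settings kept all 14. No called gene of the run changed sign, and 396 of 413 recomputed log2 fold changes moved by less than the replicate spread. Many of the 413 could not have moved further. Changing the filter or the trend leaves a fold change as it is. Omitting 1 library shifts a strain mean by less than that spread, apart from small changes in scaling. The count is therefore no measure of stability.

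The number of genes called by limma (1718) was 2661 with FPKM as deposited, of which 463 were higher, against 939 of 1718 after rescaling, and the median over all genes was -0.26 there. Leaving out single libraries gave 17 to 1836 called genes, and 3 to 15 genes of the run called higher in place of 16. The low values, 17 and 3, came without GXUR001 replicate 2, where 2299 genes, 18 of them higher and in the run, had an unadjusted p under 0.05. The omission of GXUR001 replicates 1 and 3 left 539 and 549 called genes, and without TE4-10 replicate 1 it was 1083. A lone TE4-10 library is assumed to vary like the GXUR001 libraries. The strains share replicate numbers, but the labels do not say that these pair the cultures. Deviations of same-numbered libraries from their strain mean had correlations of -0.01 and 0.04. The deviations of the TE4-10 libraries are equal and opposite, so both values rest on the same difference and do not settle the pairing. With the replicate block, in which GXUR001 replicate 2 has no partner and drops out of the comparison, limma called 0 genes, 0 of them in the run, while 2476 genes had an unadjusted p under 0.05, 16 of them higher and in the run. The number of reads behind each FPKM value limits the genes under 1 FPKM most.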
